A study of Mus musculus with 6 samples.

Results

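The genes described here encode proteins of the small (40S) subunit of the cytoplasmic ribosome. They were taken by symbol as the protein-coding genes named Rps with a number, with or without the endings a or x, together with Rpsa and Fau, and without Rps12 and Rps27. Of 29275 gene identifiers in the files, 28932 had a symbol and 32 matched the symbols. Rps12 and Rps27 were then left out, and so was Rps4l, which is annotated as a pseudogene, so that 29 genes remained. The symbol rule does not reach Rps3a1, Rps27l, Rps27rt and Rack1, which also encode proteins found on the subunit and are given at the end.

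RNA sequencing was done on primary Sertoli cells of the mouse, which line the seminiferous tubules and nurse developing germ cells. There were 6 libraries, 3 of cells labelled wild-type and 3 of cells labelled cKO, in which Arhgef15, the gene of a guanine nucleotide exchange factor, is conditionally deleted. Titles number the biological replicates 1 to 3 within each genotype, and values below are listed in that order. All cultures were kept in DMEM/F12 with 10% serum, penicillin, streptomycin and EGF, and total RNA was extracted with TRIzol. The cells are otherwise labelled untreated. Cre driver, deleted exons, strain and age of the mice were not stated in the labels. The labels do not say whether each replicate came from a separate animal, so p-values cover the spread among these libraries only.

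The small subunit binds the messenger RNA, scans for the start codon and holds the decoding centre, where codon and anticodon are matched. Its proteins are made in near equal numbers and built around the 18S ribosomal RNA in the nucleolus and cytoplasm. Most of their messenger RNAs begin with a run of pyrimidines, the TOP (terminal oligopyrimidine) sequence, through which mTOR and the RNA-binding protein LARP1 set their translation and stability together. Proliferating cells and cells that secrete much protein are known for high levels of these messenger RNAs.

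Start sites of RefSeq are shown for members on which the comparison below turns, since the TOP sequence lies at the start of the messenger RNA. Windows of 60 bases, 45 before and 15 from the start, are printed on the gene's strand with coordinates of GRCm38.p6. Capitals mark 4 pyrimidine words looked for near the start, namely the word CTTTCC, the word CTTTTC, the word CTCTTT and the word CTTCCT, and also the ETS core TTCCGG on either strand.
Rps6 (chr4:86857353-86857412, minus strand): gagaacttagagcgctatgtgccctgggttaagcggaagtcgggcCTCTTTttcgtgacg
Fau (chr19:6057902-6057961, plus strand): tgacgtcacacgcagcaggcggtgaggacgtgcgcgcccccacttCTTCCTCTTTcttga
Rps10 (chr17:27635230-27635289, minus strand): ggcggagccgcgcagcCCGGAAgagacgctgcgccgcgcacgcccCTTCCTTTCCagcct
Rps7 (chr12:28635939-28635998, minus strand): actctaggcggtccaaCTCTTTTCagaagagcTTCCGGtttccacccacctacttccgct
Rps9 (chr7:3703996-3704055, plus strand): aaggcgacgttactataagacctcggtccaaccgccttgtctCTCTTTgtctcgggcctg
Rps23 (chr13:90923077-90923136, plus strand): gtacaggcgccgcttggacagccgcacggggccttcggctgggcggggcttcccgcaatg
In Rps6, Rps10 and Fau a searched word opened at the RefSeq start itself, within a pyrimidine run that began just before it, and in Rps9 the word lay across the start. In Rps7 the marked words lay upstream of the start. Rps23, one of the few members with a higher mean in the cKO libraries, held none of the searched words in this window.

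Of the 29 members, 21 were in the RefSeq start-site table. Among those not matched were Rps14 and Rps29. CTCTTT stood on the gene strand within 30 bases before to 20 bases after the start in 6 of the 21 (28.6%: Fau, Rps15a, Rps26, Rps6, Rps7 and Rps9), against 1.97% of the 9013 tested genes in the same table. Any of the 4 words, which overlap one another, stood there in 10 of 21 (47.6%), against 10.4%, and on either strand in 11 of 21 (52.4%), against 18.5%. These words were chosen after the start sequences had been read, so their share describes these windows and is no test. In the whole 300 bases of a table entry, TTCCGG on either strand occurred in 11 of 21 (52.4%, against 32.6%), and GGGCGG on either strand in 12 of 21 (57.1%, against 70.7%). On the gene strand alone, TTCCGG occurred in 4 of 21 (19.05%, against 19.29%), so its higher share was seen only with both strands counted. Members with a pyrimidine word lay on both sides of the genotype difference: Rps6, Rps7 and Fau had lower means in the cKO libraries, Rps10 and, by a log2 difference of only 0.07, Rps9 higher ones.

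Arhgef15, the targeted gene, had 0.123, 0.0237 and 0.349 FPKM, or fragments per length of exon and per depth of the library, in the wild-type libraries. The cKO libraries had 0.501, 0.322 and 0.338 FPKM. It was thus not lower in the libraries labelled cKO, and the groups overlapped. The difference was 0.26 on the log2(FPKM + 1) scale (SE 0.13; limma, adjusted p = 0.903 over 29275 genes). A two-sided exact permutation test returned p = 0.3, with 0.1 the smallest p for 3 against 3 libraries. Fragments from outside the deleted exons would still be counted in this value, and the groups are named by their labels.

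Depth, read from the step between neighbouring values, was 16790000 to 20320000 fragments per library. Wild-type replicates 1 and 2 stood apart from the other 4 libraries in the markers of the labelled cell type. Over 22 Sertoli markers, the summed level was 369, 336 and 966 FPKM for wild-type and 692 to 1007 FPKM for cKO. Of the 19 Sertoli markers tested, 15 had a higher and 4 a lower mean in cKO libraries. All cKO libraries were above all wild-type libraries in 2 of the 19 (6.28% of all genes). For Sox9, the Sertoli-determining transcription factor, the wild-type libraries had 5.97, 5.10 and 20.2 FPKM, and the cKO libraries 22.3 to 35.6 FPKM. Fshr, the receptor for follicle-stimulating hormone, was listed at 0 in wild-type replicates 1 and 2 and at 0.20 to 1.42 FPKM elsewhere. Sertoli markers were thus detected in every library and were uneven within the wild-type group.

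All 29 members were detected, Rps10 only at a low level. Their mean over the 6 libraries ran from 2.33 FPKM for Rps10 to 1203 FPKM for Rps2, with a median of 321 FPKM, and every one passed the filter of at least 1 FPKM in at least 3 libraries. Rps10 alone made the range 515-fold, and the other 28 spanned 23.3-fold. FPKM divides by the union of a gene's annotated exons, which was 630 bases for Rps15 and 6270 bases for Rps15a, so this order of levels also reflects annotation. Together the members took 4.54%, 3.82% and 3.29% of all FPKM in the wild-type libraries, against 3.33%, 3.08% and 2.77% under cKO. As means, this was 3.88% ± 0.630 for wild-type and 3.06% ± 0.277 for cKO (SD, n = 3 each). Wild-type replicate 3 lay below cKO replicate 1, so the groups overlapped. In bulk samples, fewer cells of a type and less RNA per cell cannot be told apart.

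**Figure D1:**
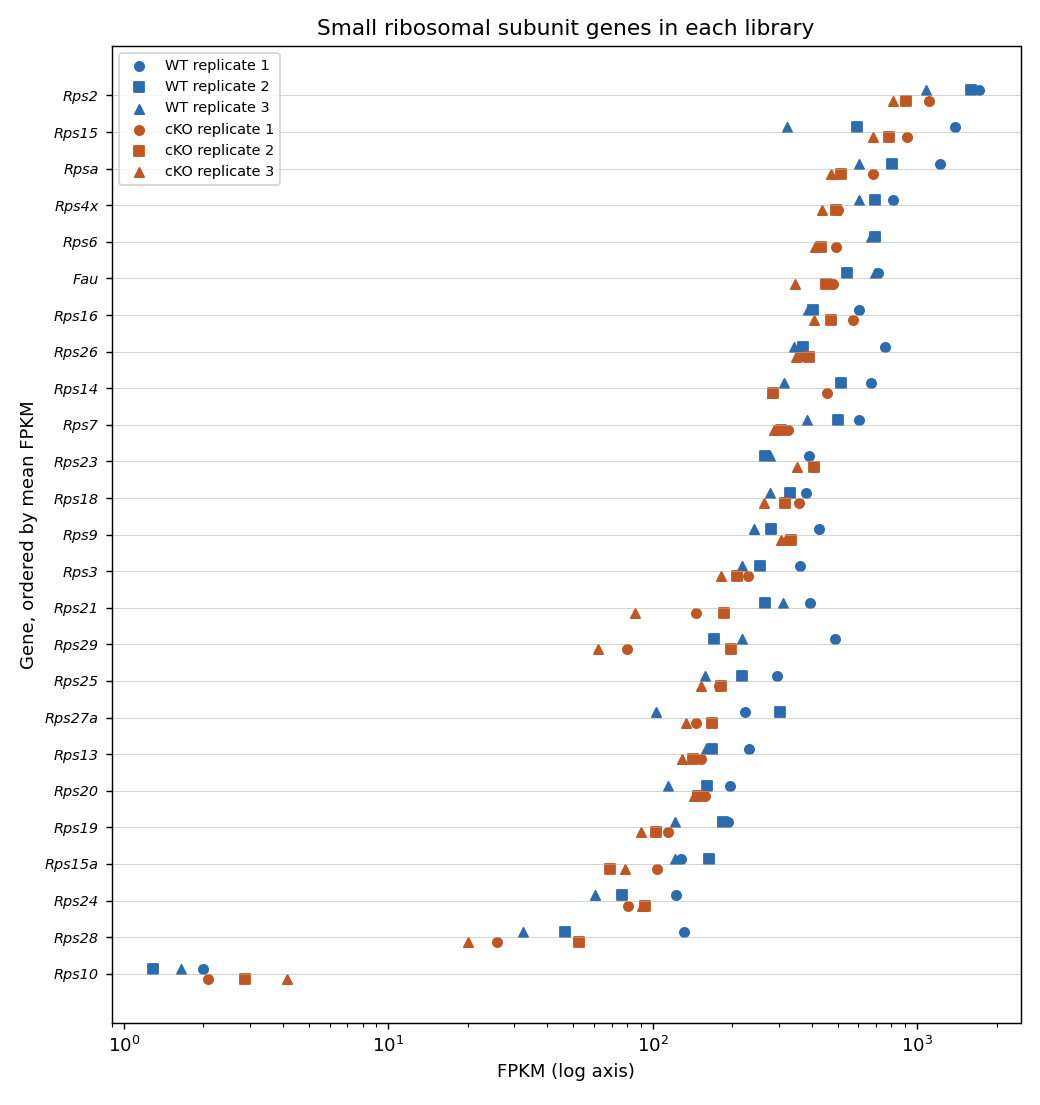
FPKM of 25 of the 29 small subunit genes (log axis) in each of the 6 libraries, ordered by mean, wild-type in blue and cKO in orange, with the replicate number given by the symbol. Wild-type replicate 1 is the highest library in 21 of the 25 genes, cKO replicate 3 the lowest in 15, and Rps10 lies far below all others.

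Among the members with the highest mean FPKM were Rps2, Rps15 and Rpsa. Rps2, a protein at the channel where the messenger RNA enters, stood at 1717, 1598 and 1078 FPKM in the wild-type libraries against 1106, 908 and 811 FPKM in the cKO libraries. Only wild-type replicate 3 reached into the cKO range, just under cKO replicate 1. Rpsa, also known as the laminin receptor precursor, stood at 1221, 804 and 603 FPKM against 684, 513 and 472 FPKM in the same order. Again wild-type replicate 3 fell below cKO replicate 1. Rps15, a protein of the head whose tail reaches towards the decoding centre, had 1395, 593 and 322 FPKM in the wild-type and 912, 781 and 683 FPKM in the cKO libraries. Here wild-type replicate 1 was the highest of all 6 libraries and wild-type replicate 3 the lowest, 4.33-fold apart, with the cKO libraries between wild-type replicates 1 and 2. Rps2 was the highest member in every library, whereas the order of Rps15 and Rpsa changed from library to library.

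Between genotypes, the members were on balance lower in the libraries labelled cKO, and 0 of the 29 passed the test after adjustment (limma, adjusted p from 0.545 to 0.982). Of all 12284 genes tested, 0.0163% were called. The mean was lower in cKO libraries for 22 members and higher for 7, where 40.2% of all tested genes had a lower mean. The median log2 difference was -0.40 over the members and 0.08 over all tested genes, and the members ran from -1.39 (Rps29) to 0.59 (Rps10). At an unadjusted p under 0.05, limma gave 9 members lower and 0 higher, against 2.94% of all genes lower and 3.87% higher. The cKO libraries were all below the lowest wild-type library in 11 members (37.9%, against 5.01% of all genes), among them Rps21, Rps6, Rps15a, Rps7, Rps19, Fau, Rps4x and Rps13. The opposite was seen in Rps10 only (6.28% of all genes).

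These counts moved with single libraries. Without wild-type replicate 3, 18 members had every cKO library below every wild-type library (15.5% of all genes), 17 were lower at an unadjusted p under 0.05 (8.05%), and 6 had an adjusted p under 0.1 (8.62%) with 0 under 0.05. Those lower at an unadjusted p under 0.05 numbered 4 when wild-type replicate 1 (2.33% of all genes) or 2 (1.55%) was left out, 3 when cKO replicate 2 was (1.51%), and 2 when cKO replicate 3 was (1.72%). Without wild-type replicate 1, 7 members had every cKO library above every wild-type library (12.7%). With limma's array weights, which set wild-type replicate 2 at 4.01 and wild-type replicates 1 and 3 at 0.433 and 0.258, 8 members passed an adjusted p of 0.05, with Rps10 higher and the other 7 lower, among them Rps15a, Rps19, Rps2, Rps4x, Rps6 and Rps7. With the same weights 10.7% of all genes passed, 4.29% lower.

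**Figure D2:**
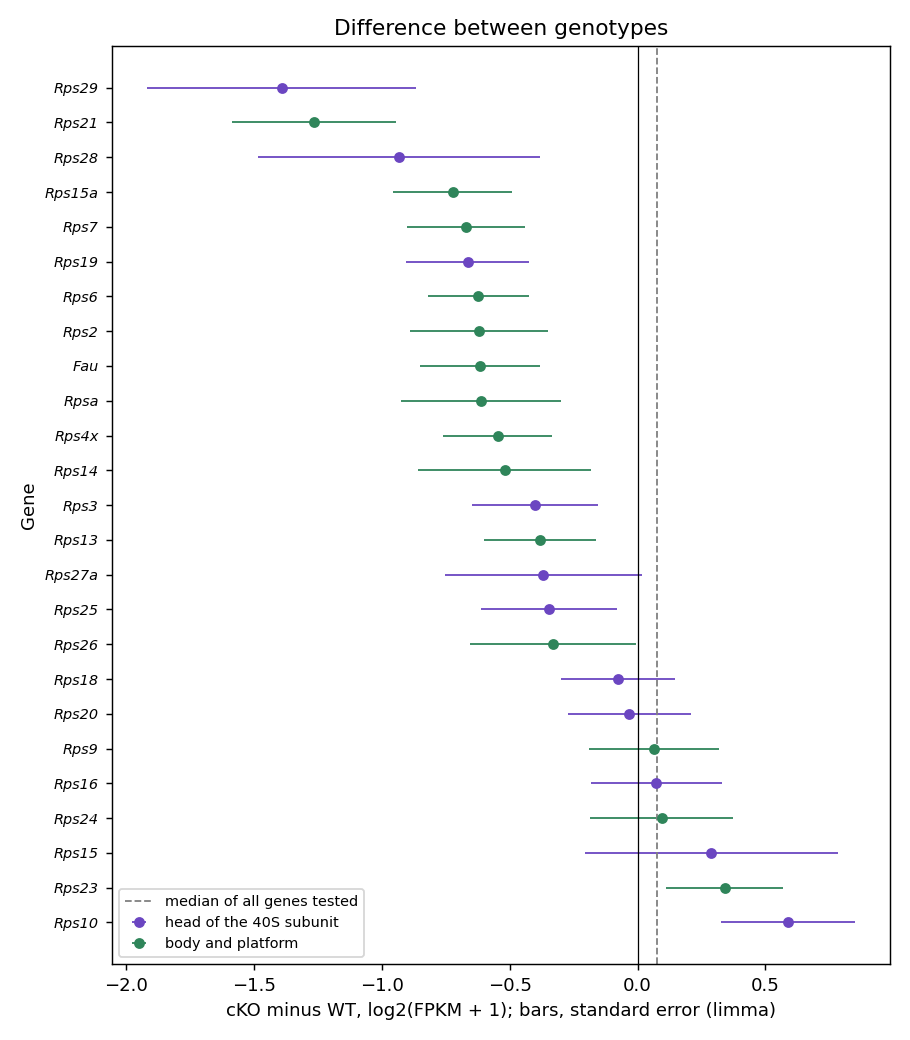
Difference between genotypes on the log2(FPKM + 1) scale for 25 of the 29 genes, with the standard error from limma as bars, coloured by place in the 40S subunit; the dashed line is the median of all tested genes, 0.08. Of the 25 points, 19 lie below 0, and the genes run from Rps29 at -1.39 to Rps10 at 0.59.

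In the head of the subunit, which swivels as transfer RNAs pass, 13 members were placed by textbook structure. Of these 10 had a lower and 3 a higher mean, 3 were below in all cKO libraries and 1 above (5.01% and 6.28% of all genes), and the median log2 difference was -0.37. Rps19, a head protein needed for 18S maturation and a gene mutated in Diamond-Blackfan anaemia, had 192, 184 and 121 FPKM against 114, 103 and 90.5 FPKM. Wild-type replicate 3 was close to cKO replicate 1, and the log2 difference was -0.66 (SE 0.24; limma, adjusted p = 0.655). Rps29, a small zinc-binding protein of the head, had the largest log2 difference, -1.39, with the second largest SE among the members, 0.53 (limma, adjusted p = 0.674). Its values were 490.1, 169.9 and 217 FPKM in wild-type and 79.7, 198 and 62.3 FPKM in cKO libraries. Here cKO replicate 2 lay between wild-type replicates 2 and 3, so the groups overlapped. Rps28 showed the same order among the cKO libraries, with 131, 46.7 and 32.4 FPKM in wild-type and 25.8, 52.6 and 20.1 FPKM in cKO libraries (log2 difference -0.93, SE 0.55; limma, adjusted p = 0.790). Without wild-type replicate 1 the log2 difference of Rps28 was -0.36.

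Besides Rps10, described below, the head proteins Rps15 and Rps16 had somewhat higher means in the cKO libraries. For Rps15 the log2 difference was 0.29 (SE 0.49; limma, adjusted p = 0.927), and it was -0.21 without wild-type replicate 3. Rps16, whose tail touches the transfer RNA in the P site, had 600.5, 405 and 388 FPKM in wild-type and 570.2, 472 and 409 FPKM in cKO libraries. Its log2 difference of 0.07 turned to -0.041 without wild-type replicate 3, and the groups overlapped widely. Rps18, Rps20, Rps25, Rps27a and Rps3 had log2 differences between -0.40 and -0.03 with overlapping groups, and those of Rps18 and Rps20 were above 0 under quantile normalization.

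In the body and platform, which hold the decoding centre and the path of the messenger RNA, 16 members were placed. Of these 12 had a lower and 4 a higher mean, 8 were below in all cKO libraries and 0 above (5.01% and 6.28% of all genes), and the median log2 difference was -0.53. Whether the body and platform differ from the head was not tested. Rps21, a small eukaryote-specific protein, had the smallest p of all members: it stood at 395, 267 and 311 FPKM in the wild-type libraries against 145, 187 and 85.9 FPKM in the cKO libraries. The log2 difference was -1.26 (SE 0.32; limma, adjusted p = 0.545), and the lowest wild-type value was well above the highest cKO value.

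Rps6, the protein phosphorylated by the S6 kinases downstream of mTOR, was the most even member within the wild-type group, with a coefficient of variation of 1.84%. It had 695, 691 and 671 FPKM in the wild-type libraries against 495, 435 and 410.4 FPKM in the cKO libraries. The means were 686 ± 12.6 and 447 ± 43.3 FPKM (SD, n = 3 each), and the groups did not overlap. Its log2 difference of -0.62 (SE 0.20; limma, adjusted p = 0.608) stayed between -0.70 and -0.56 with any 1 library left out. Rps15a, a protein at the base of the platform, had 128, 164 and 122 FPKM against 104, 68.8 and 78.3 FPKM. Rps7, a eukaryote-specific protein that takes part in early 18S processing, had 602, 501 and 382 FPKM against 325, 305 and 288 FPKM. In both genes every cKO library was below every wild-type library, with log2 differences of -0.72 and -0.67.

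Fau, which is made as a fusion of a ubiquitin-like protein with a ribosomal protein, and Rps4x, the X-linked member, had log2 differences of -0.62 and -0.55. In each of them the groups were apart, cKO below. Rps13 was also below in all cKO libraries, with a log2 difference of -0.38. Rps14 (-0.52) and Rps26 (-0.33), proteins near the exit of the messenger RNA channel, had overlapping groups. Without wild-type replicate 1 the log2 differences were -0.21 for Rps13, -0.28 for Rps14 and 0.03 for Rps26.

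Rps23, Rps24 and Rps9 were among the 4 body and platform members with a higher mean. Rps23, which lines the decoding centre, had 391, 265.5 and 277 FPKM in wild-type and 407, 408 and 352 FPKM in cKO libraries (log2 difference 0.34, SE 0.23; limma, adjusted p = 0.819), and the log2 difference was 0.52 without wild-type replicate 1. Wild-type replicate 1 reached into the cKO range and the other wild-type libraries lay below it. Rps24, another gene mutated in Diamond-Blackfan anaemia, had 123, 76.2 and 60.4 FPKM against 80.7, 93.9 and 91.3 FPKM. Here wild-type replicate 1 was the highest and wild-type replicate 3 the lowest of the 6. Without wild-type replicate 3 the log2 difference went from 0.10 to -0.13 for Rps24 and from 0.07 to -0.10 for Rps9.

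By another division, 15 members have a counterpart in bacteria and archaea and 14 do not. Every cKO library was below every wild-type library in 3 of the 15 and in 8 of the 14 (5.01% of all genes), with median log2 differences of -0.38 and -0.48. This contrast was not tested.

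The wild-type group itself was uneven. Wild-type replicate 1 was above wild-type replicate 3 in 29 of 29 members, by a median of 1.58-fold, from 1.03-fold in Fau to 4.33-fold in Rps15. This fall was not particular to the members. From replicate 1 to replicate 3, total FPKM fell from 346688 to 293593. Large subunit genes fell from 27233 to 15732 FPKM in sum, and mitochondrial small subunit genes from 582 to 321 FPKM. Some other lists rose, among them the Sertoli markers, from 369 to 966 FPKM. The counts given here were not set against all tested genes. The median coefficient of variation was 23.4% in wild-type and 11.6% in cKO libraries, and it was larger in wild-type for 22 of 29 members. Wild-type replicate 1 lay above all cKO libraries in 27 members, wild-type replicate 2 in 18 and wild-type replicate 3 in 12. In another 10 members wild-type replicate 3 lay below all cKO libraries, and in 7 within their range. The median log2 deviation from a gene's mean over all libraries was 0.52, 0.14 and -0.17 in the wild-type libraries against -0.08, -0.09 and -0.38 in the cKO libraries.

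**Figure D3:**
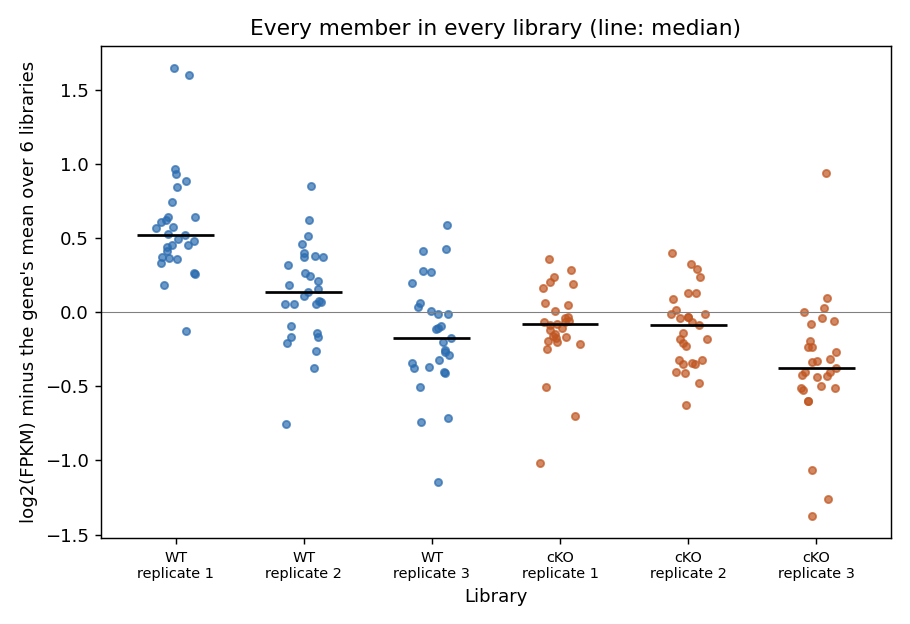
Deviation of each of the 29 genes from its own mean over the 6 libraries (log2 FPKM), 1 point per gene, with the median of each library as a line. The medians fall from 0.52 in wild-type replicate 1 to -0.17 in wild-type replicate 3, which is lower than in cKO replicates 1 and 2 (-0.08 and -0.09).

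Among markers of other testis cells, macrophage and myoid sums were highest in wild-type replicates 1 and 2. Sums of endothelial cells and of spermatogonia and spermatocytes were lowest in those libraries. Leydig, fibroblast and spermatid sums were not divided in this way. Over 15 macrophage markers, the summed level was 1350, 1098 and 269 FPKM in the wild-type libraries against 283, 133 and 255 FPKM in the cKO libraries. All 13 tested macrophage genes had a lower mean in cKO libraries, and 0 passed adjustment (limma). At an unadjusted p under 0.05, 7 of them were lower (limma), against 2.94% of all genes. Lyz2, a lysozyme of macrophages, had 648 and 577 FPKM in replicates 1 and 2 of the wild-type, against 37.1 to 69.4 FPKM in the other 4 libraries. Over 8 myoid markers the sums were 3102, 2440 and 518 FPKM against 695, 824 and 1298 FPKM. Leydig sums ran from 200.4 to 375 FPKM in wild-type and from 143 to 243 FPKM in cKO libraries, and fibroblast sums from 655 to 1346 and from 723 to 1137 FPKM. Spermatid sums ran from 76.6 to 261 and from 28.9 to 410 FPKM, sums of spermatogonia and spermatocytes from 31.5 to 272 and from 101 to 212 FPKM, and endothelial sums from 32.4 to 70.4 and from 63.2 to 111 FPKM. Erythroid sums were under 1 FPKM in every library. No marker of these lists was at 0 in all libraries. The number of genes above 0 was lowest in wild-type replicate 1 (19105) and highest in wild-type replicate 3 (23862). The part of these differences in the members' values was not tested.

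Since the members' sum itself differed between libraries, each library was also scaled to that sum, a step chosen after the values had been seen. A share can then only rise where another falls. The median log2 difference was then 0.01 over the members and 0.41 over all tested genes, and 13 members had a lower mean. Every cKO share was under every wild-type share in 5 members (1.24% of all genes under this scaling), among them Rps21, Rps7, Rps19 and Rps2. The cKO shares lay above in 8 (18.7% of all genes), among them Rps10, Rps23, Rps18, Rps24, Rps16, Rps9 and Rps20. Since this scaling centres the members near 0 and shifts the other genes up, these percentages of all genes are no like baseline for the members. The smallest adjusted p of a member was 0.327 (limma), that of Rps23. Rps23 made up 2.49%, 2.26% and 2.87% of the members' FPKM in the wild-type libraries against 3.99%, 4.42% and 4.35% in the cKO libraries. Rps21 made up 2.51%, 2.27% and 3.22% against 1.43%, 2.02% and 1.06%.

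Ribosomal protein genes have many processed pseudogenes, intronless copies of the messenger RNA, and fragments of a member can be assigned to a copy or the reverse. The files held 58 copies named after 20 of the members, of which 22 stayed under 1 FPKM in every library. Of the 29 copies tested, 23 had a lower and 6 a higher mean in cKO libraries, 9 were below in all cKO libraries and 2 above (5.01% and 6.28% of all genes), and the median log2 difference was -0.54. The most abundant was Rps10-ps2, with 612, 339 and 182 FPKM in wild-type and 235, 174 and 168 FPKM in cKO libraries. Of its 50-base words, 76.7% occur in transcripts of Rps10.

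Rps10, the lowest member, had only 1.98, 1.29 and 1.64 FPKM in wild-type and 2.08, 2.86 and 4.16 FPKM in cKO libraries, from 58 to 193 fragments per library. It was the only member with every cKO value above every wild-type value (log2 difference 0.59, SE 0.26; limma, adjusted p = 0.736). The gene itself held 1.38% to 3.59% of the fragments of Rps10 and its named copies in the wild-type and 3.59% to 9.22% in the cKO libraries. It also shares 24.9% of its words with the annotated gene RPS10-NUDT3. Summed with its named copies, the log2 difference was -0.68 in place of 0.59 (limma, adjusted p = 0.792), so the higher level of Rps10 in cKO libraries did not hold for the family.

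Rps13-ps2, an exact copy of part of the Rps13 messenger RNA, had 270.3, 158 and 163 FPKM in wild-type and 70.5, 47.3 and 40.8 FPKM in cKO libraries. Its log2 difference was -1.87 (SE 0.30; limma, adjusted p = 0.263), against -0.38 for Rps13. Rps13 held 83.0% to 85.2% of the fragments of its family in wild-type and 91.6% to 94.0% in cKO libraries. Rps16-ps2, likewise with all its words in its parent, had 389, 265.0 and 262 FPKM against 261, 196 and 173 FPKM, and Rps16 held 80.9% to 81.6% and 86.3% to 87.3% of its family. In both families the named copies together took a smaller share of the fragments in every cKO library than in any wild-type library.

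**Figure D4:**
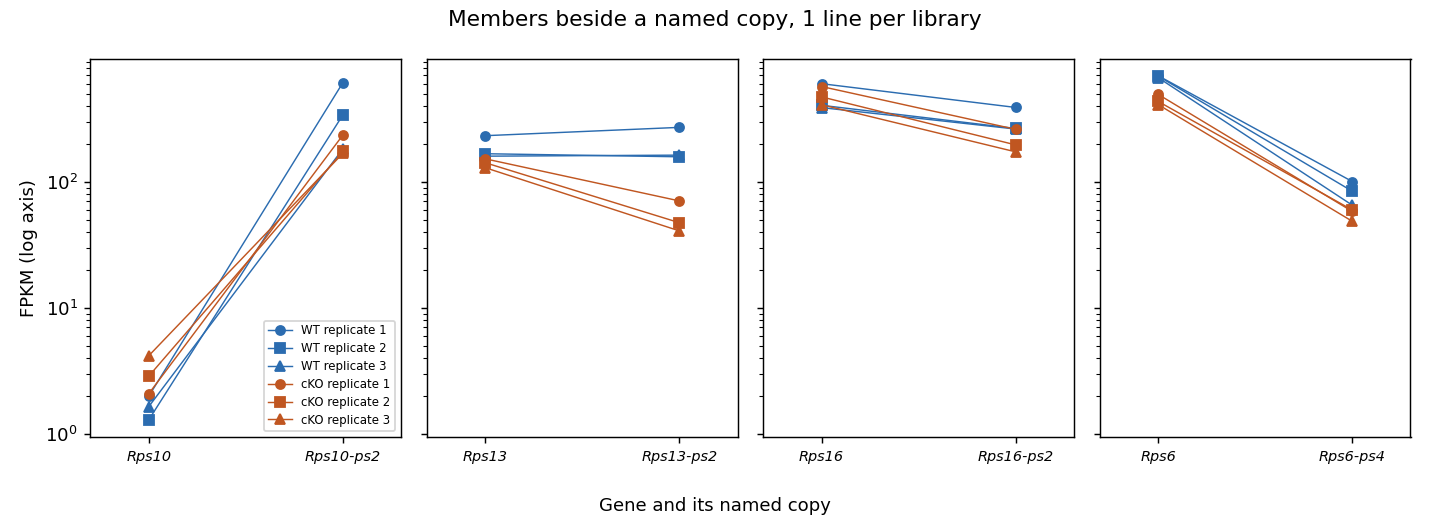
FPKM (log axis) of 4 members and 1 named copy of each, with 1 line per library, wild-type in blue and cKO in orange. Rps10-ps2 is far above Rps10 in every library, and Rps13-ps2 is level with Rps13 in wild-type libraries but below it in cKO libraries.

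Summed with their named copies, 24 of the 29 members had a lower mean in cKO libraries, 11 were below in all cKO libraries and 0 above (4.95% and 6.27% of all genes so summed), and the median log2 difference was -0.52. Copies with names not taken from the parent were not summed. Over the members' transcripts, the share of 50-base words also present in another annotated gene had a median of 33.1%, with 2.82% in Rps3 and 84.6% in Rps6. The 7 members under 16%, a limit chosen after seeing the values, had a median log2 difference of -0.40 with 3 below in all cKO libraries. The other 22 also had a median of -0.40, with 8 below (5.01% of all genes). Across the 29 members, the Spearman correlation of this share with the log2 difference was 0.01, as a description of genes measured in the same libraries.

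Of 6 subunit genes outside the rule, 1 passed the test, and it was 1 of only 2 genes called among all 12284 (0.0163%). The list was made with earlier results of these data known, so its count is no test of subunit genes. Rps27rt, a retrogene copy of Rps27, stood at 554.6, 484 and 425 FPKM in the wild-type libraries against 41.5, 58.9 and 50.4 FPKM in the cKO libraries. It fell by 3.26 on the log2 scale (SE 0.22; limma, adjusted p = 0.00899). The adjusted p was between 0.0530 and 0.127 when wild-type replicate 2 or any 1 of the cKO libraries was left out, and 0.0938 without the filter on low values. With the replicate number as a block in the model, it was 0.223 (limma). Fragments of Rps27 and its copy may be assigned to either. The other 5 had a lower mean in cKO libraries and did not pass. Rps27 had a log2 difference of -1.54 (limma, adjusted p = 0.438), Rps27l, a p53-responsive relative of Rps27, -0.79 (0.605), Rps12 -0.45 (0.732), and the scaffold Rack1 -0.43 (0.818), or -0.20 without wild-type replicate 1. Rps3a1, one of the most abundant of these genes at 1004, 1001 and 858 FPKM in wild-type and 819, 859 and 908 FPKM in cKO libraries, had -0.14 (0.911), with overlapping groups. Under quantile normalization its log2 difference was 0.04.

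Among genes of the large (60S) subunit, 49 of 51 were tested: 37 had a lower and 12 a higher mean, 14 were below in all cKO libraries and 1 above (5.01% and 6.28% of all genes), and the median log2 difference was -0.24. Rpl39 (-1.59; limma, adjusted p = 0.263), Rpl37 (-1.37; adjusted p = 0.545) and Rpl29 (-0.90; adjusted p = 0.545) had the smallest p. The 29 tested genes of the mitochondrial small subunit, which serve a separate ribosome, were evenly divided, 15 lower and 14 higher, with a median of -0.04. No gene of either list passed adjustment (limma). At an unadjusted p under 0.05 there were 12 lower and 1 higher large subunit genes (2.94% and 3.87% of all genes) and 0 mitochondrial ones.

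The machinery around the subunit did not share the members' balance. Of all tested genes, 40.2% had a lower mean, with a median of 0.08. Whether any list differed from all genes was not tested. Of 45 tested genes for assembly of the small subunit, 36 had a higher and 9 a lower mean (median 0.14), and Nol6, a nucleolar assembly factor, had 0.41, or 0.16 without wild-type replicate 3. Of 13 tested genes of RNA polymerase I and its regulators, which make ribosomal RNA, 10 were higher and 3 lower (median 0.17). Its largest subunit, Polr1a, had 7.68, 8.26 and 8.07 FPKM in wild-type and 10.2, 11.6 and 11.3 FPKM in cKO libraries (limma, adjusted p = 0.736). It was the only 1 of the 13 with every cKO library above every wild-type library (7.69%, against 6.28% of all genes). Initiation factors were divided, 19 higher and 12 lower (median 0.03), with Eif4g1, the scaffold of the cap-binding complex, at 0.53 and Eif3i at -0.54. Of 6 tested S6 kinase genes, 5 were higher and 1 lower (median 0.11), and 0 separated the groups.

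Other genes with TOP messenger RNAs were lower in 14 and higher in 6 of 20 (median -0.11), from Tpt1 (-0.44) and Eef1b2 (-0.40, or -0.26 without wild-type replicate 1) to Ybx1 (0.54, or 0.28 without wild-type replicate 3). Of 17 genes that regulate these messenger RNAs, 15 had a higher and 2 a lower mean (median 0.14). Among all tested genes, 40.2% had a lower mean, with a median of 0.08. Every cKO library was above every wild-type library in 2 of the 17 regulators (6.28% of all genes), among them Larp1. Larp1, which binds the TOP sequence, had 29.1, 33.8 and 30.5 FPKM in the wild-type libraries against 47.6, 47.7 and 48.8 FPKM in the cKO libraries. The groups were well apart and even within themselves, with a log2 difference of 0.61 (SE 0.17; limma, adjusted p = 0.582). Ddit4, an inhibitor of mTOR signalling, had 53.5, 43.6 and 117 FPKM against 231, 247 and 78.8 FPKM, with cKO replicate 3 below wild-type replicate 3. In the list of the p53 response to ribosome stress, 8 of 10 genes had a lower mean (median -0.27). This list overlaps those above: Rpl5 and Rpl11 are also large subunit genes, and Rps27l is among the subunit genes outside the rule. No gene of the lists for assembly, polymerase I, initiation, TOP messenger RNAs and their regulators, S6 kinases and p53 passed adjustment (limma), where 0.0163% of all genes did. At an unadjusted p under 0.05 there were 2 higher regulators, 3 lower genes of the p53 list, and 1 higher and 1 lower initiation factor. Of all genes, 2.94% were lower and 3.87% higher at that p (limma).

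**Figure D5:**
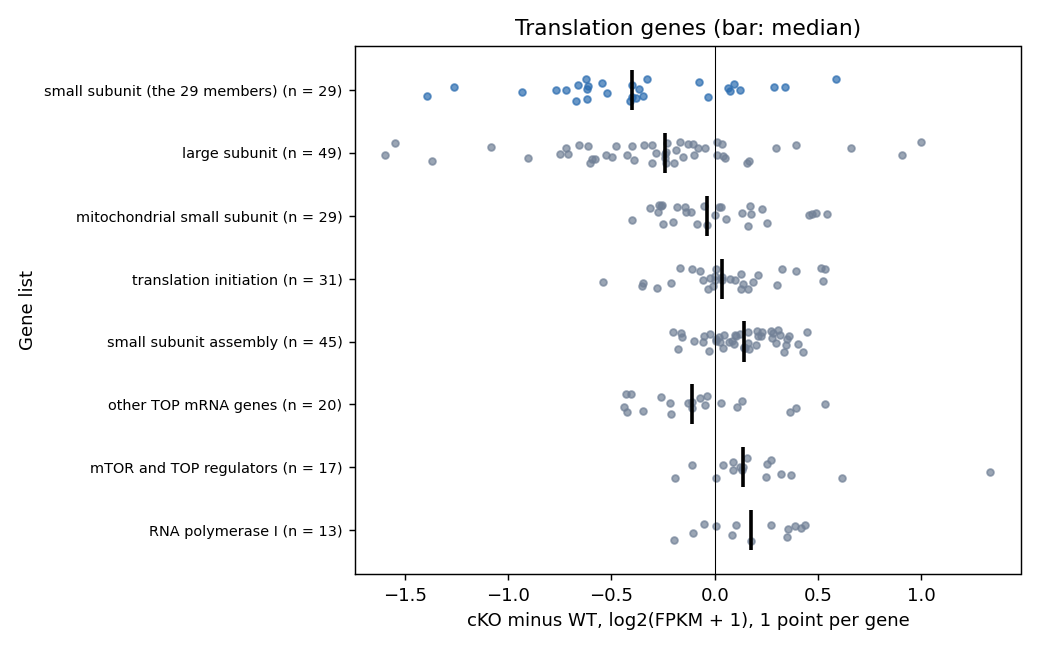
Log2 difference between genotypes (log2(FPKM + 1) scale) of each tested gene in 8 lists of ribosome and translation genes, 1 point per gene, with the median as a bar. The medians run from -0.40 for the small subunit and -0.24 for the large subunit to 0.14 for small subunit assembly and 0.17 for RNA polymerase I.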

How the data were processed

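Each of the 6 libraries was given as 1 value per gene. The submitters' processing notes name FastQC, HISAT2 2.1.0 and the build mm8. No source used here names the counter, the annotation or the use of strand, so overlapping antisense genes cannot be separated. The unit of the deposited values was taken as FPKM: times the exonic length of GENCODE vM21, 99.1% to 99.5% of values of single-exon genes with up to 10 fragments were whole within 0.02 times their fragment number. FPKM are not counts, and no count model was used. Identifiers newer than mm8 put the named build in doubt.

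Values were fitted as log2(FPKM + 1), which understates changes of low genes. The model was limma 3.58.1 in R 4.3.3 with the trend option of eBayes and genotype as its only term. Tests were two-sided, p-values were adjusted after Benjamini and Hochberg over 12284 genes, and the threshold was 0.05. A gene was tested if 3 of the 6 libraries or more had 1 FPKM or more. Tables were made with Python 3.11.15. The fit was tested on simulated data for this comparison (12284 genes, 200 changed, 3 draws). It recovered 0% of 2-fold changes and 72.5% of 4-fold changes, with 0 and 6.67 false calls per draw.

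The members and lists were chosen with earlier results of these data known. Per-library values are given for the 6 members with the smallest p in each direction, the 4 highest, the 3 lowest and Rps6, and at most 3 genes of each other list are named by p. Some members are counted but not reported here by name. Rps29, Sox9, Fshr, Lyz2 and the copies were singled out after their values were seen. Alternatives were no filter, 5 FPKM in all 6 libraries, a pseudocount of 0.1 or 5, scaling by median ratios or quantiles, array weights (gene by gene, since the default had not converged), no predicted genes, a length correction, the replicate block, a threshold of 0.1, members summed with named copies, and each library left out. Scaling to the column sum (TPM) or to the members' sum, and counts of non-overlapping members under each setting, were added after seeing the data.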

Additional observations from a re-analysis of the deposited data

How the results depend on the processing

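The median log2 difference of the members was 0.0087 when each library was scaled to the members' sum, which holds that sum constant, and below 0 in every other setting run, from -0.22 (quantile normalization) and -0.33 (TPM) to -0.52 (summed with named copies), and between -0.56 and -0.27 with 1 library left out. The count of members with a lower mean was 13 when scaled to the members' sum and 19 to 27 otherwise. Members past the threshold were 8 with array weights and 0 in every other setting, with 1 library left out as well. Genes past the threshold, 2 in the report's fit, were 0 without the filter, 1311 with array weights, 1 with predicted genes and pseudogenes left out, and 0 to 478 with 1 library left out, the highest without wild-type replicate 3. Members with all cKO values below all wild-type values, 11 (5.01% of all genes), were 11 to 18 with 1 library left out. The share of all genes was then 6.16% to 15.5%. They were 5 when scaled to the members' sum (1.24%, no like baseline under that scaling). The same 11 genes were kept in every other setting except median-ratio scaling (8 kept), quantile normalization and the length correction (10 kept each). Members with all cKO values above, 1 (6.28% of all genes), were 0 with the stricter filter (6.71%), median-ratio scaling (5.62%) and summed copies (6.27%). They were 3 with quantile normalization (4.94%), 2 with TPM (8.21%), and 8 when scaled to the members' sum (18.7%, again no like baseline). With 1 library left out they were 1 to 7, and the share of all genes was 8.04% to 25.9%.

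The replicate numbers are not stated to mark a shared animal, litter or day. Deviations of same-numbered libraries correlated at 0.138, 0.032 and -0.206, and those of differently numbered libraries from -0.447 to 0.484. With 3 libraries per group, these correlations cannot show whether the numbers pair the samples. With the replicate block, 0 genes and 0 members passed the threshold, and the median of the members was -0.40.

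Single log2 differences changed sign in several genes, most of them near 0 in the report's fit. Rps10, Rps15 and Rps26, which also changed sign, were at 0.59, 0.29 and -0.33 there. Rps10 was at -0.68 and Rps16 at -0.022 when summed with named copies. Rps18 was at 0.15 and Rps20 at 0.087 with quantile normalization, and Rps3a1 at 0.044. Rps20 was at 0.043 with TPM, Rps24 at -0.040 with the length correction and Rps9 at -0.0030 with median-ratio scaling. With 1 library left out, Rps15 ran from -0.21 to 0.85, Rps16 from -0.051 to 0.27, Rps18 from -0.20 to 0.037, Rps20 from -0.24 to 0.15, Rps24 from -0.13 to 0.38, Rps26 from -0.54 to 0.031 and Rps9 from -0.10 to 0.30. The cause of these changes was not tested. Arhgef15 ran from 0.06 (pseudocount 5) to 1.05 (pseudocount 0.1) and from 0.17 to 0.37 with 1 library left out. The effect of depth was not tested; Rps10 had the fewest fragments of the members, 58 to 193 per library.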
